A study of Homo sapiens with 9 samples.

Results

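The 9 genes described here encode the core of the CARD-BCL10-MALT1 signaling relay and the kinases it acts on: BCL10, MALT1, CARD9, CARD10, MAP3K7, TAB2, CHUK, IKBKB and IKBKG. They were taken by gene name, as members of this relay, with earlier results of these data known, and all 9 were found among the 60656 genes of the deposited count table. RNA-seq covered 9 libraries of RIVA, an established human cell line of the ABC-DLBCL type, that is, diffuse large B-cell lymphoma with an activated B-cell profile. Cells had been infected with a lentiviral pLVX-TetOne construct, selected with puromycin, and held either no insert (vector), BCL10 S136X (a stop in place of a serine codon) or BCL10 R58Q (glutamine in place of arginine), with 3 libraries per group. Every group, vector included, received doxycycline for 24 h. The treatment protocol gives the dose as 200 ng/mL, whereas the sample characteristics print the same figure per µL. No group here carried induced wild-type BCL10, so each comparison with vector contrasts a mutant insert with no insert. All libraries kept the endogenous BCL10 gene. Libraries held 28047713 to 33122267 counts (median 32185418). The study calls the libraries biologic replicates. The column names carry a date, and that date separates all 3 R58Q libraries from the vector and S136X libraries. Date and R58Q therefore cannot be told apart in any comparison with R58Q below.

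In B cells, antigen receptor signaling through BTK and PKCβ opens a CARD-family scaffold protein, which seeds BCL10 into filaments that bind MALT1. MALT1 is both an adaptor, which recruits ubiquitin ligases, and a protease. The ubiquitin chains gather TAK1 with its TAB adaptors and the IKK complex, whose kinases phosphorylate the IkB proteins and so release NF-kB. ABC-DLBCL is known for chronic activity of this relay.

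The mutated positions of BCL10 set the groups apart, so the reference sequence around the R58Q codon is shown first. BCL10 (ENSG00000142867.14) lies on the minus strand of GRCh38 chromosome 1, from 85265776 to 85276632. In transcript ENST00000370580.6 of GENCODE release 29, the R58Q codon is in exon 2 of 3 and the S136X codon in exon 3 of 3. The line below gives the reference coding strand, 5′ to 3′, with 30 bases on either side and the codon itself in capitals. It is genome sequence, not that of the constructs, whose codons were not given in the sources used here.
BCL10 R58Q codon, arginine in the reference, chr1:85270760-85270822: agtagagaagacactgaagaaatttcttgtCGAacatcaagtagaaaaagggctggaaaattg
The full reading frame has 233 codons, and 135 of them (57.9%) precede the S136X codon. The R58Q codon falls in the part that encodes the CARD domain, through which BCL10 assembles, and the S136X codon in the part that encodes the serine- and threonine-rich tail. A frame that stops at the S136X codon keeps the CARD domain and lacks most of the tail.

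BCL10, the adaptor that forms the filaments, was the member that differed most between either mutant and vector. Vector libraries held 885, 1268 and 936 BCL10 counts. S136X libraries held 14293, 13210 and 9838, and R58Q libraries 10596, 10131 and 10117. All 6 mutant libraries were far above all 3 vector libraries. Levels are given as CPM, read counts made comparable between libraries by their totals and TMM factors. The means were 30.9 ± 6.87 (SD, n = 3) in vector, 414 ± 71.7 (SD, n = 3) in S136X and 335 ± 24.0 (SD, n = 3) in R58Q. BCL10 rose 13.4-fold in S136X (log2 fold change 3.75, SE 0.18, edgeR quasi-likelihood test with Benjamini-Hochberg adjusted p = 2.6e-05) and 10.8-fold in R58Q (3.44, SE 0.15, adjusted p = 1.76e-05). The 95% intervals were 10.1- to 17.8-fold and 8.56- to 13.7-fold. Since the insert is BCL10, these counts check the labels of insert against no insert. They do not check which mutant a library carries. The long noncoding gene AL078459.1, which overlaps BCL10, had 10 to 29 counts. The BCL10 counts join reads of the endogenous gene and of the construct, which the table does not separate, and the length of each insert was not given in the sources used here, so counts of the 2 mutants are not levels per molecule.

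The mutants themselves overlapped in BCL10, because S136X replicate 3 (345 CPM) was below R58Q replicate 1 (357 CPM). S136X also had the wider spread, from 345 to 488 CPM against 309 to 357 CPM in R58Q. The log2 fold change of R58Q against S136X was -0.32 (SE 0.12, unadjusted p = 0.0271, adjusted p = 0.363 in edgeR's test across all genes), which did not pass. With the replicate number as a block, the value was -0.30 and the adjusted p 0.000189.

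**Figure D1:**
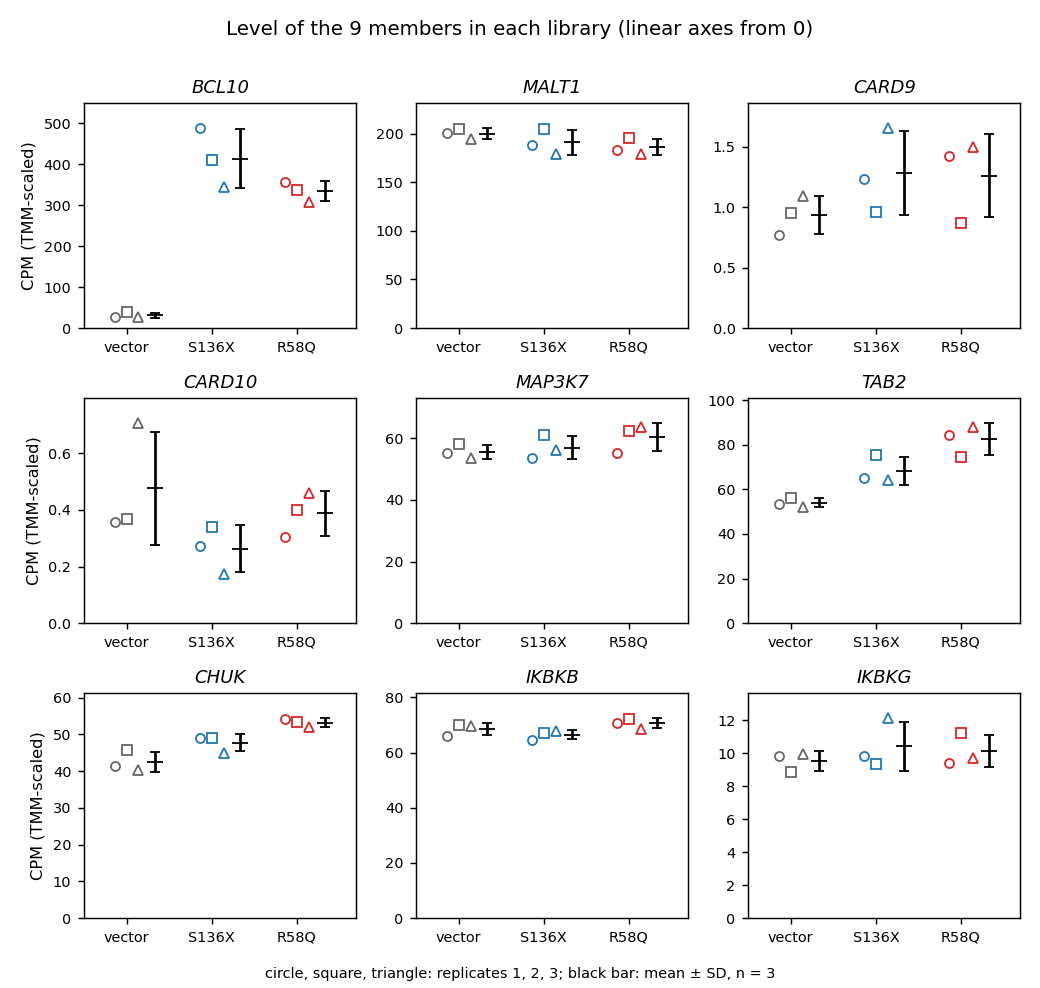
Level of each of the 9 genes in each library, as TMM-scaled CPM on linear axes that start at 0. Circle, square and triangle mark replicates 1, 2 and 3, and the black bars give the mean ± SD (n = 3). BCL10 was between 26.3 and 38.8 CPM in vector and at 309 CPM or above in every mutant library, and TAB2 lay lowest in vector.

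Of the 9 genes, 2 passed an adjusted p under 0.05 in S136X against vector, BCL10 and TAB2, both higher. In that comparison 10.1% of all 15530 genes tested passed, and 6.03% were higher. In R58Q against vector 3 of the 9 passed, BCL10, TAB2 and CHUK, again all higher, where 21% of 15435 genes passed and 12.3% were higher. With a change of at least 1.5-fold asked as well, only BCL10 passed in S136X (3.87% of all genes did) and BCL10 and TAB2 in R58Q (7.63%). All 9 genes came through the filter on low counts in each comparison. BCL10 is the gene on the construct, and without it 1 of 8 passed in S136X and 2 of 8 in R58Q. The median log2 fold change of those 8 was 0.08 in S136X and 0.10 in R58Q, beside -0.02 and -0.03 over all genes tested. Both comparisons use the same 3 vector libraries.

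MALT1, the protease and the direct partner of BCL10, had 6781, 6706 and 6608 counts in vector, 5516, 6597 and 5095 in S136X, and 5422, 5835 and 5868 in R58Q. Scaled to CPM the groups overlapped, with means of 200 ± 5.31 (SD, n = 3), 191 ± 13.0 (SD, n = 3) and 186 ± 8.14 (SD, n = 3). The fold change of 0.952 in S136X had a 95% interval of 0.858 to 1.06 (adjusted p = 0.536, edgeR), and that of 0.926 in R58Q an interval of 0.845 to 1.02 (adjusted p = 0.209, edgeR). No MALT1 change of the size seen in BCL10 was present in either mutant. Within a library, BCL10 counts were 0.131 to 0.189 of MALT1 counts in vector, 1.93 to 2.59 in S136X and 1.72 to 1.95 in R58Q. The exact permutation test of this ratio gave p = 0.1 (two-sided, 3 against 3 libraries) for either mutant against vector, the smallest p that 3 against 3 allows. Of the 31-base words of the MALT1 transcript, 12.9% also occur in other annotated genes.

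The 2 scaffold genes were near the limit of detection. CARD9, the scaffold of myeloid cells, had 26, 31 and 37 counts in vector, 36, 31 and 47 in S136X, and 42, 26 and 49 in R58Q, and the groups overlapped. Its log2 fold changes were 0.45 (95% interval -0.18 to 1.07, adjusted p = 0.339, edgeR) and 0.43 (-0.20 to 1.06, adjusted p = 0.298, edgeR). At this depth the CARD9 intervals still reach 2.10-fold in S136X and 2.08-fold in R58Q. CARD10, the scaffold of epithelial and endothelial cells, had 12, 12 and 24 counts in vector, 8, 11 and 5 in S136X, and 9, 12 and 15 in R58Q. Scaled to CPM, the S136X libraries (0.175 to 0.341) lay below the vector libraries (0.356 to 0.706) without overlap, as the groups of 31.3% of all genes did in that comparison. The log2 fold change of -0.84 had an interval from -1.80 to 0.13 and did not pass (adjusted p = 0.249, edgeR). CARD14, the scaffold of skin, which is no member, had 0 to 2 counts per library and was not tested.

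MAP3K7 encodes TAK1, the kinase that phosphorylates the IKK kinases. It had 1864, 1905 and 1823 counts in vector, 1569, 1966 and 1604 in S136X, and 1640, 1865 and 2079 in R58Q, and the scaled groups overlapped. Neither mutant passed against vector. The fold was 1.02 in S136X (95% interval 0.915 to 1.14) and 1.08 in R58Q (0.966 to 1.21).

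TAB2, the adaptor that tethers TAK1 to lysine-63-linked ubiquitin chains, was higher in every mutant library than in any vector library, a separation that 31.3% of all genes showed in S136X and 40.3% in R58Q. It spans chromosome 6 from 149218641 to 149411613, and the genes that overlap it had 0 to 7 counts. Vector libraries held 1801, 1839 and 1777 counts (53.5, 56.2 and 52.3 CPM). S136X libraries held 1907, 2433 and 1826 (65.2, 75.4 and 64.1 CPM), and R58Q libraries 2511, 2230 and 2885 (84.6, 74.5 and 88.2 CPM). Vector was the tightest group, and replicate 2 of S136X reached above replicate 2 of R58Q, the only overlap between the mutants. TAB2 rose 1.53-fold in R58Q (log2 fold change 0.61, SE 0.075, adjusted p = 0.00158, edgeR), and it passed in each of 14 alternative settings, with values from 0.55 to 0.68. In S136X it rose 1.26-fold (0.34, SE 0.078, adjusted p = 0.0281, edgeR). That call was lost when vector replicate 1, 2 or 3 or S136X replicate 2 was left out, with log2 fold changes of 0.34, 0.37, 0.33 and 0.27 and adjusted p of 0.0578, 0.0831, 0.0837 and 0.0517. R58Q against S136X gave 0.26 (SE 0.090, adjusted p = 0.322, edgeR) and did not pass, but did with the replicate block (0.26, adjusted p = 0.0102).

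TAB2 and MAP3K7 counts were almost equal in vector, with TAB2 at 0.969 ± 0.00521 (SD, n = 3) of MAP3K7. The ratio was 1.20 ± 0.052 (SD, n = 3) in S136X and 1.37 ± 0.168 (SD, n = 3) in R58Q, and each mutant library was above each vector library (exact permutation p = 0.1, two-sided, 3 against 3 libraries, for either mutant, the smallest possible). The other TAK1 adaptors, TAB1 and TAB3, did not pass in either mutant. In the order vector, S136X, R58Q, TAB1 averaged 46.7, 42.7 and 40.2 CPM and TAB3 56.3, 57.5 and 56.0 CPM. TAB1 in R58Q did pass with the replicate block (log2 fold change -0.22, adjusted p = 0.0268) and with upper-quartile or total-count scaling (-0.28 in each, adjusted p = 0.0395 and 0.0433), in the direction opposite to TAB2.

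CHUK encodes IKKα, the catalytic subunit that also drives the noncanonical NF-kB route. It lies on chromosome 10 from 100188300 to 100229596. It had 1393, 1493 and 1374 counts in vector (41.3, 45.6 and 40.4 CPM), 1431, 1585 and 1281 in S136X (48.9, 49.1 and 44.9 CPM), and 1612, 1597 and 1702 in R58Q (54.3, 53.3 and 52.1 CPM). All R58Q libraries were above all other libraries, and S136X overlapped vector through its replicate 3. Of all genes, 40.3% did not overlap in R58Q against vector and 17% did not in R58Q against S136X. CHUK rose 1.25-fold in R58Q (log2 fold change 0.32, SE 0.066, adjusted p = 0.0125, edgeR). Without vector replicate 3 the value was 0.29 and the call was lost (adjusted p = 0.0506). In S136X the fold was 1.12 (95% interval 0.999 to 1.26, adjusted p = 0.192, edgeR), which did not pass. R58Q against S136X gave a log2 difference of 0.15 (adjusted p = 0.397, edgeR), and 0.15 with an adjusted p of 0.0459 under the replicate block.

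IKBKB, which encodes IKKβ, the catalytic subunit of the canonical route, had 2228, 2291 and 2365 counts in vector, 1890, 2166 and 1933 in S136X, and 2100, 2163 and 2244 in R58Q. Its CPM spanned 66.1 to 70.0 in vector, 64.6 to 67.8 in S136X and 68.6 to 72.3 in R58Q. The mutants stood on either side of vector, both overlapping it. The fold against vector was 0.970 in S136X (95% interval 0.885 to 1.06) and 1.03 in R58Q (0.940 to 1.12), and neither passed. The mutants did not overlap each other in IKBKB, as held for 17% of all genes in that comparison, and the log2 difference of 0.08 did not pass (adjusted p = 0.728, edgeR).

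IKBKG, which encodes NEMO, the ubiquitin-binding regulatory subunit, had 331, 289 and 337 counts in vector, 288, 301 and 346 in S136X, and 278, 335 and 317 in R58Q. The groups overlapped, and neither mutant passed against vector (fold 1.10, 95% interval 0.892 to 1.34, and 1.06, 0.882 to 1.27). Its level is uncertain, since 49.3% of the 31-base words of its transcript also occur in other annotated genes, 46% in the pseudogene copy IKBKGP1, which was listed with 0 to 4 counts.

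The count ratio of IKBKB to CHUK within a library was 1.62 ± 0.0948 (SD, n = 3) in vector, 1.40 ± 0.0982 (SD, n = 3) in S136X and 1.33 ± 0.0265 (SD, n = 3) in R58Q. Each mutant library was below each vector library (exact permutation p = 0.1, two-sided, 3 against 3 libraries, for either mutant, the smallest possible). Of single genes, 31.3% separated as fully in S136X against vector and 40.3% in R58Q against vector. No such share was computed over ratios of other gene pairs, for this ratio or for TAB2 to MAP3K7. In S136X neither IKBKB nor CHUK passed (adjusted p = 0.675 and 0.192, edgeR). The ratio of IKBKG to IKBKB was 0.139, 0.157 and 0.143 in the 3 groups, which overlapped.

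**Figure D2:**
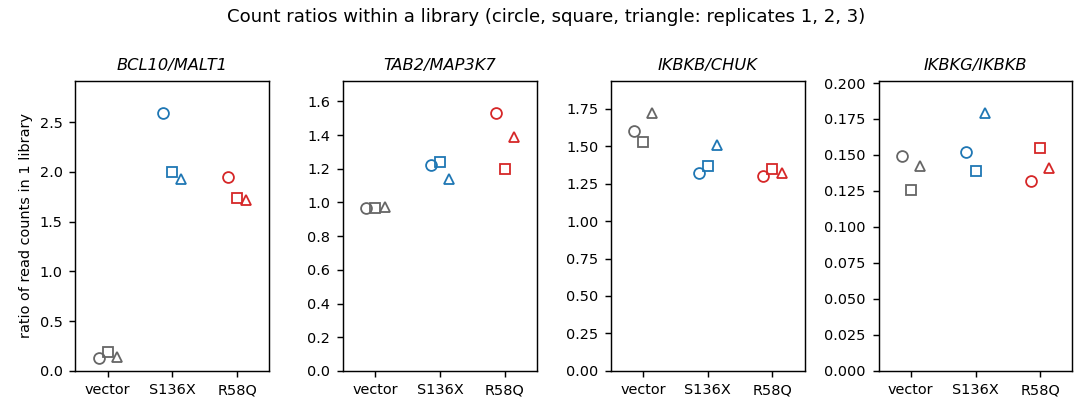
Ratio of read counts of 2 genes within each library, on linear axes from 0, with circle, square and triangle for replicates 1, 2 and 3. BCL10/MALT1 had a mean of 0.154 in vector, 2.17 in S136X and 1.80 in R58Q, TAB2/MAP3K7 was above vector and IKBKB/CHUK below vector in all 6 mutant libraries, and IKBKG/IKBKB overlapped.

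Set against each other, the mutants differed in none of the 9 genes at an adjusted p under 0.05 in edgeR's test, where 0.533% of 15195 genes passed. At an unadjusted p under 0.05 there were 3, BCL10, TAB2 and CHUK, where 11% of all genes were under it. DESeq2 and limma-voom also passed 0 of the 9. With the replicate block the same 3 genes passed, BCL10 lower and TAB2 and CHUK higher in R58Q, where 14.6% of all genes passed. For MALT1, MAP3K7, IKBKB and IKBKG the 95% intervals of R58Q against S136X were 0.870 to 1.08, 0.926 to 1.20, 0.965 to 1.15 and 0.768 to 1.20 as folds. For CARD9 and CARD10, at under 50 counts per library, they were 0.612 to 1.58 and 0.809 to 2.60.

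**Figure D3:**
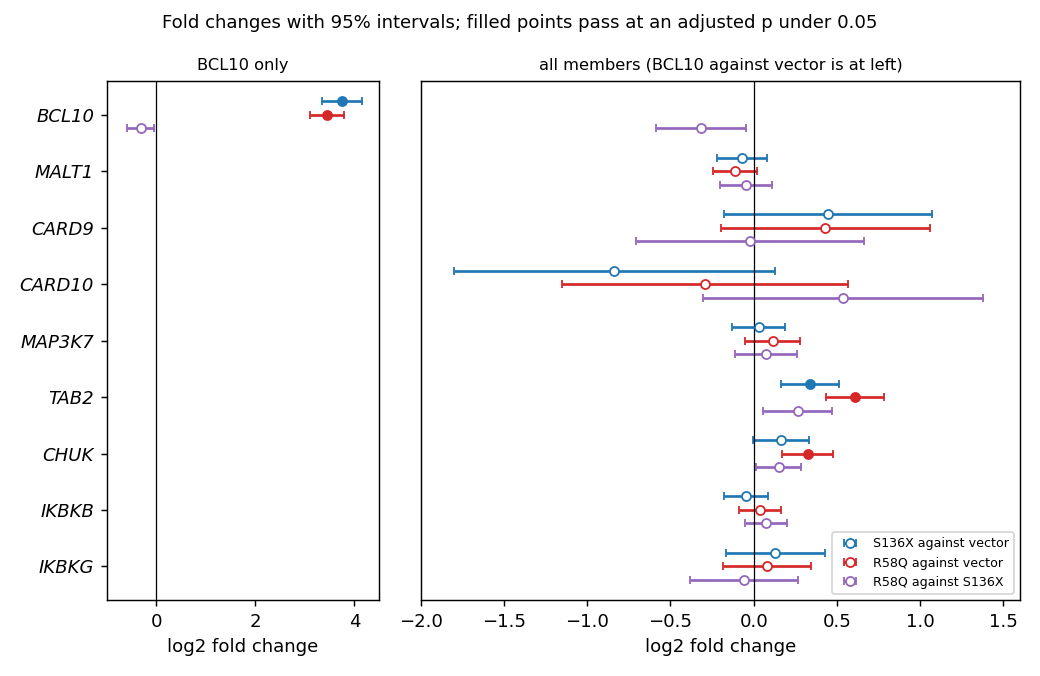
Log2 fold changes with 95% intervals for the 9 genes in S136X against vector, R58Q against vector and R58Q against S136X, with filled points at an adjusted p under 0.05. BCL10 is at left on its own axis (3.75 and 3.44 against vector), TAB2 was filled in both mutants and CHUK in R58Q, and the open points of CARD9 and CARD10 have the widest intervals.

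The order of levels in RIVA was read per kilobase of the longest consensus coding transcript, as CPM per kb. In vector MALT1 came first at 21.3 (range 20.7 to 21.9), then IKBKB at 17.0 (16.4 to 17.3). TAB2 at 11.9, CHUK at 11.7, MAP3K7 at 11.3 and BCL10 at 9.94 followed, and these 4 overlapped between libraries, so their order is not resolved. IKBKG at 4.14, CARD9 at 0.441 and CARD10 at 0.116 came last, each separate from the next. No such level is given for BCL10 in the mutants, since its reads there include those of an insert whose length is not given. TAB2, at 18.1 in R58Q (16.4 to 19.4), overlapped IKBKB (17.0 to 17.9) and MALT1 (19.1 to 20.8). The order depends on the length used, for which 1 transcript stands in for all. Per kilobase of all annotated exons, IKBKB stood at 6.10 in vector, beside CHUK at 6.12 and below TAB2 at 8.99.

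The other genes of the relay were read from 7 lists with 45 further genes, of which 44 were tested. Of these, 15 passed in S136X (13 higher, 2 lower) and 23 in R58Q (18 higher, 5 lower). Over all genes tested, 6.03% and 12.3% passed as higher, and 4.1% and 8.76% as lower. The median log2 fold change of the 44 was 0.10 and 0.15. The further genes passed at a higher share than all genes did, but the lists were chosen with earlier results known, and no inference is drawn from that. Without vector replicate 2, the counts were 9 in S136X and 14 in R58Q.

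Of the 8 IkB and NF-kB genes, the targets of the IKK kinases, 6 passed as higher in each mutant. Over all genes, 6.03% passed as higher in S136X and 12.3% in R58Q. Over the 8, the median was 0.66 in S136X and 0.92 in R58Q on the log2 scale. NFKBIA encodes the main IkB protein that the IKK kinases phosphorylate. Its RNA rose by 0.99 (SE 0.074, adjusted p = 0.000236, edgeR) and 2.03 (SE 0.12, adjusted p = 4.93e-05, edgeR), and protein was not measured in these libraries. NFKBIA RNA was at 288 to 329 CPM in vector, 576 to 638 in S136X and 1020 to 1400 in R58Q, with no overlap among the 3 groups. Of all genes, 31.3% did not overlap in S136X against vector, 40.3% in R58Q against vector and 17% between the mutants. NFKBIE, which encodes another IkB protein, had log2 fold changes of 1.02 and 1.32. NFKB2, which encodes the precursor of p52, had 0.87 and 1.40. NFKB1, which encodes the precursor of p50, had 0.82 and 1.17, and all of these passed.

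The MALT1 protease substrates passed for 6 of 11 in S136X and 7 of 11 in R58Q, all higher. Over all genes, 6.03% and 12.3% passed as higher. TNFAIP3, which encodes the deubiquitinase A20 that restrains IKK, had log2 fold changes of 1.03 and 1.36 in RNA. LIMA1, an actin-binding protein, had 1.13 and 0.95, and RELB, an NF-kB subunit counted in the previous list too, 0.51 and 0.68. MAP3K14, the kinase NIK that acts on IKKα, is in this list and in that of the IKK-related kinases, and had 0.57 and 0.34. Leaving out vector replicate 2 ended the calls of RELB in S136X (0.47, adjusted p = 0.0524) and of MAP3K14 in S136X (0.54, adjusted p = 0.0552) and R58Q (0.30, adjusted p = 0.0625). The LIMA1 call in R58Q was lost without vector replicate 1 or 2 or R58Q replicate 3 (0.81, 0.92 and 0.66, with adjusted p of 0.0638, 0.0957 and 0.0668).

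Between MALT1 and IKK, 2 of 11 genes of the ubiquitin relay passed in S136X and 3 of 11 in R58Q, all higher. These shares of 18.2% and 27.3% stand beside 10.1% and 21% over all genes. BIRC3, the ubiquitin ligase cIAP2, had log2 fold changes of 0.78 and 1.22, and TRAF2, its partner, 0.32 and 0.38. TRAF2 in S136X no longer passed without vector replicate 1, 2 or 3 or S136X replicate 2 or 3 (0.34, 0.28, 0.37, 0.36 and 0.26, with adjusted p of 0.0658, 0.167, 0.0632, 0.0596 and 0.0978), nor with upper-quartile or total-count scaling (0.28 and 0.27, adjusted p = 0.061 and 0.0978). Of the 6 IKK-related kinases and adaptors, 1 passed in S136X and 4 in R58Q, 1 of these lower. The shares were 16.7% and 66.7%, beside the same 10.1% and 21% over all genes.

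Above the scaffold, the 8 genes of the B-cell receptor relay, which include the B-cell markers CD79A and CD79B, had medians of -0.31 (S136X) and -0.33 (R58Q) on the log2 scale. In S136X 2 passed, both lower, and in R58Q 5 did, 4 of them lower. Over all genes, 4.1% and 8.76% passed as lower. BLNK, the adaptor that links SYK to BTK, had -0.28 and -0.55. Its call in S136X was lost without vector replicate 2 or 3 or S136X replicate 1, 2 or 3 (-0.26, -0.24, -0.23, -0.30 and -0.29, with adjusted p of 0.155, 0.135, 0.0806, 0.0601 and 0.0859), and with all 9 libraries in one fit (-0.28, adjusted p = 0.0557). With the replicate block 7 genes of this list passed in S136X, 6 of them lower, where 24.7% of all genes did, and 7 in R58Q, 6 of them lower, where 35.2% did.

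Of the 44 further genes, 3 passed between the mutants, all higher in R58Q, as 0.349% of all genes did. NFKBIA differed by 1.03 on the log2 scale (SE 0.12, adjusted p = 0.0138, edgeR), BIRC2, the ubiquitin ligase cIAP1, by 0.60 (SE 0.079, adjusted p = 0.0242) and NFKB2 by 0.52 (SE 0.078, adjusted p = 0.0406). BIRC2 stood at 70.2 to 75.5 CPM in R58Q and 44.6 to 53.3 in S136X, and had not passed in S136X against vector. Each of these calls was lost when single libraries were left out. NFKBIA lost it without S136X replicate 2 or 3 or R58Q replicate 3 (1.03, 1.01 and 0.99, with adjusted p of 0.0726, 0.14 and 0.0847). BIRC2 lost it without S136X replicate 1 or 3 or R58Q replicate 1 or 3 (0.57, 0.55, 0.60 and 0.57, with adjusted p of 0.0873, 0.158, 0.0829 and 0.126). NFKB2 lost it without any 1 of the libraries other than R58Q replicate 2 (0.464 to 0.565, with adjusted p of 0.114 to 0.158). With the block, 17 of the 44 passed, where 14.6% of all genes did.

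**Figure D4:**
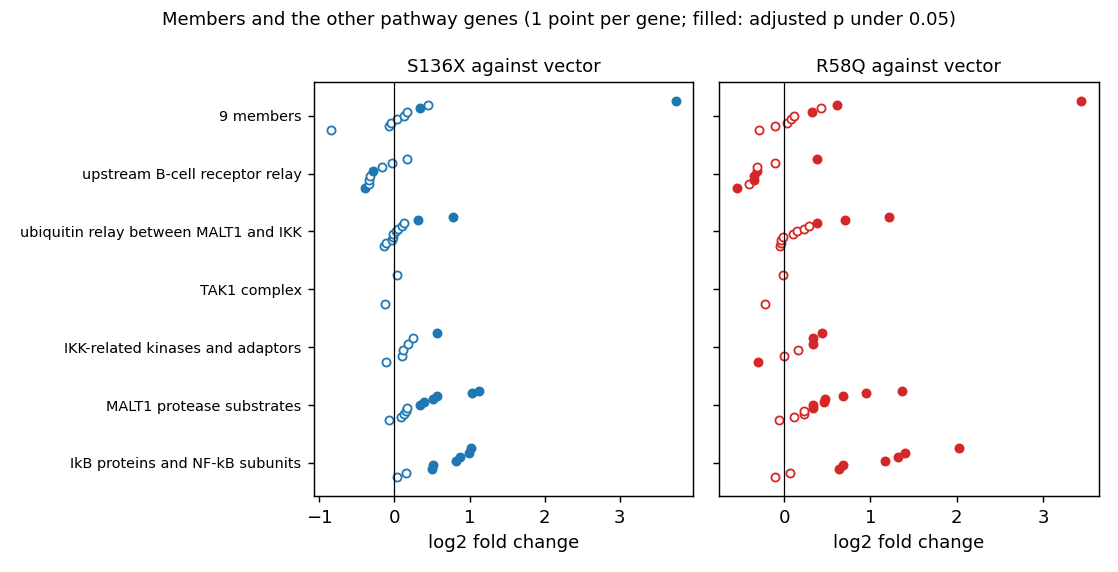
Log2 fold change of each of the 9 genes and of the further pathway genes in 6 lists, for S136X (left) and R58Q (right) against vector, 1 point per gene and filled at an adjusted p under 0.05. BCL10 is the point at 3.75 and 3.44, the IkB and NF-kB genes extend to 1.02 and 2.03, and the B-cell receptor relay lies mostly left of 0.

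The genes whose profile over the 9 libraries was most like that of BCL10 were found by the root-mean-square distance of centred log2 CPM over 15860 genes. They were CCL17, a chemokine (distance 0.453), the pseudogene NAP1L4P1 (0.559), SLAMF7, a surface receptor (0.618), CD58, an adhesion molecule (0.623), and EBI3, a cytokine subunit (0.625), beside a median distance of 1.74. CCL17 went from 77 to 125 counts in vector to 914 to 1244 in S136X and 1268 to 2155 in R58Q. BCL10 had the larger mean CPM in S136X, whereas all 5 of these genes had the larger log2 fold change in R58Q. The distance depends on the size of a change, and BCL10 spanned 4.21 on the log2 scale. The other 8 members had log2 fold changes of -0.84 to 0.61 against vector. Their absence from these 5 follows from those values and adds nothing further.

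Promoter windows of 8 of the 9 genes, 250 bases before to 50 after the RefSeq start (GRCh38.p14), were searched on both strands for the kB consensus bound by NF-kB. It was found in 2 of them, CARD9 and TAB2, and in 5.91% of 35116 such windows. The matches are shown because TAB2 was the member that rose in both mutants besides BCL10, with 10 bases on either side and the match in capitals, each read 5′ to 3′ on the gene's strand.
TAB2 match, 12 bases after the start, chr6:149318302-149318331: cgagcgcctaGGAGAGCCCCgggtggggga
CARD9 match, 179 bases before the start, chr9:136373829-136373858: ctgggcctctGGGGCATCCCcaggaccccc
The TAB2 match is on the strand opposite to the gene. A single RefSeq start was used for each gene. That of TAB2 lies well inside the span of the gene in the count table, which begins at 149218641. The window is therefore not at the outermost 5′ end of TAB2, and that end was not searched. A match in the letters is a description of the sequence. CARD9 did not pass in either mutant, and BCL10, MALT1, CARD10, MAP3K7, CHUK and IKBKG had no match in this window.

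The labelled cell type was checked on marker genes. All 7 B-cell markers had at least 10 counts in every library (summed level 2440 to 3220 CPM). Of the activated B-cell-like lymphoma list 8 of 10 did, and CCND2 (0 to 1 counts) and LMO2 (0 to 8) did not. This list also holds the germinal-centre genes LMO2, MME, MYBL1 and BCL6. MME had 348 to 935 counts, MYBL1 440 to 1241 and BCL6 4816 to 12002, beside 22586 to 45168 for IRF4. Since the list mixes both classes, neither its count nor its sum checks the ABC label. The summed level of that list was 1330 to 1460 CPM in vector, 2110 to 2430 in S136X and 2050 to 2470 in R58Q, and thus moved with BCL10 and TAB2. Its part in the members' values was not tested. The T-cell list summed to 2.81 to 6.68 CPM, with 5 of its 6 genes at 0 to 9 counts, and the myeloid list to 0.273 to 0.589 CPM, with ELANE at 0 counts. The epithelial list summed to 41.5 to 71.4 CPM, with EPCAM at 1019 to 1751 counts, CDH1 at 53 to 391, KRT8 at 100 to 220 and KRT18 at 5 to 28, and with KRT19 at 0. The ranges of the T-cell and epithelial lists overlapped across the groups, and those of the myeloid list overlapped or met. In bulk RNA, fewer cells with a transcript and less RNA per cell cannot be told apart.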

How the data were processed

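Poly(A)-selected RNA of 9 RIVA libraries (3 each of vector, S136X and R58Q) was sequenced by the authors. The submitters' processing notes name cutadapt, STAR, Picard and hg38. The counting program, annotation and strand setting were not given in the sources used here. The authors deposited whole read counts per gene, which were used, and a copy scaled by 1 factor for each library, which was not. There were 0 numeric columns without a sample.

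Tests were run with edgeR 4.0.16 (R 4.3.3). For each comparison the libraries of both groups were filtered (filterByExpr, at least 10 counts, total 15), scaled by TMM and put through the quasi-likelihood F test, with p adjusted by Benjamini-Hochberg over all genes tested. A gene passed at an adjusted p under 0.05. CPM are TMM-scaled over all 9 libraries (prior count 2 for log2 profiles). Totals of 28047713 to 33122267 counts set the precision. Each pair of replicates differed beyond sampling noise (chi-square over its degrees of freedom, 7.21 to 23.0).

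Named genes were the 9 members, genes that overlap or copy them, up to 4 genes per list with the largest mean change among those passing in both mutants, genes passing between the mutants, and the 5 profiles nearest to BCL10. TAB1, TAB3 and CARD14 were named after their values were seen. Some genes and sequences are not reported here. Members and lists were chosen with earlier results of these data known. Deviations from group means of libraries with the same replicate number correlated over 0.1 in all 9 cases (median 0.425, 0.143 to 0.626). Libraries of other groups with different numbers gave a median of -0.251 (-0.459 to 0.169), and these ranges overlap. The numbers were taken as pairing for the replicate block on these same counts. The labels state no pairing, and R58Q libraries carry another date.

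Alternatives were DESeq2 1.42.0, limma-voom (limma 3.58.1), other scalings and filters, all 9 libraries in one fit, the replicate block, each library left out, and stricter thresholds. Exon-union lengths were added after seeing the data. The edgeR, limma-voom and DESeq2 fits without the block were tested on simulated counts of S136X against vector. Those counts held no correlation by replicate number. The replicate block, the permutation test of ratios and the comparison between the mutants were not tested this way.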

Additional observations from a re-analysis of the deposited data

Results flagged for a closer look

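Of the further relay genes, 3 were picked out because the mutants differed in a direct test of R58Q against S136X, and none of the 9 members was. The log2 fold changes were 1.03 for NFKBIA, 0.599 for BIRC2 and 0.521 for NFKB2. Each was higher in all 3 R58Q libraries than in all 3 S136X libraries, and 17% of all genes did not overlap in that comparison. Each call was lost when single libraries were left out. The date in the column names cannot be told apart from R58Q in these differences. Groups of 3 libraries were not tested for single outlying values.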

How the results depend on the processing

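The replicate block was applied as an alternative because the numbers were taken as pairing. That choice came from these same counts and is not stated in the labels, so calls made only with the block rest on it. In S136X against vector, R58Q against vector and R58Q against S136X it gave 3840, 5433 and 2211 passing genes. The unblocked fit gave 1574, 3243 and 81. The block passed 3 members between the mutants in place of 0, 17 of the further pathway genes in place of 3, and changed no other member's call. Leaving out each library in turn gave 1 to 2 members, 485 to 1473 genes and 9 to 14 pathway genes in S136X against vector. The ranges were 1322 to 2908 genes and 14 to 23 pathway genes in R58Q against vector, and 5 to 70 genes and 0 to 3 pathway genes between the mutants. A further limit of 1.5-fold left 1 member, 601 genes and 7 pathway genes in S136X, and 1178 genes and 10 pathway genes in R58Q. An adjusted p under 0.01 left 1 member and 457 genes in S136X, 1103 genes and 13 pathway genes in R58Q, and 15 genes and 0 pathway genes between the mutants. Between the mutants DESeq2 passed 295 genes, no filter 276 and all 9 libraries in one fit 196, and DESeq2 and no filter each passed 6 pathway genes. The cause of these differences was not tested. No passing member reversed, and the BCL10 calls against vector held in all 14 alternatives. CARD10 had no value where at least 10 counts were asked of every library, nor an adjusted p from DESeq2 in S136X against vector. Depth limits CARD9 and CARD10, with under 50 counts per library.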
